A study of Mus musculus with 8 samples.

Results

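The genes described here are 10 regulators and markers of the neurons that the adult ventricular-subventricular zone (V-SVZ) makes for the olfactory bulb: Dlx1, Dlx2, Dlx5, Dlx6, Dlx6os1, Sp8, Sp9, Meis2, Dcx and Sox11. They were chosen by symbol, and all 10 were among the 32285 genes of the deposited count tables. The tables came from single nuclei of the V-SVZ of 8 mice aged 90 postnatal days, of which 4 were Tsc2 wt/wt and 4 Tsc2 mut/mut. Each mouse gave 1 library. They addressed how loss of Tsc2, an inhibitor of mTORC1 signalling, alters V-SVZ cells in vivo. Mice of both genotypes carried the Cre-dependent tdTomato reporter Gt(ROSA)26Sortm9(CAG-tdTomato)Hze/J, and nuclei were sorted for tdTomato. The mutant allele was the conditional Tsc2 tm1.1Mjg/J. The study's methods describe both electroporation of a CAG-driven Cre plasmid into neonates and a tamoxifen-inducible Nestin-CreERT2, and do not say which labelled the nuclei sequenced. The cells in which Cre acted are therefore not known here. Mice of both sexes were used.

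Neural stem cells of the V-SVZ, which are astrocyte-like, give rise to transit-amplifying cells and these to neuroblasts, which migrate along the rostral migratory stream to the olfactory bulb and become mostly GABAergic interneurons. DLX homeodomain proteins drive the GABAergic programme, with Dlx1 and Dlx2 acting upstream of Dlx5 and Dlx6. Sp8 and Sp9 encode zinc finger factors of olfactory bulb interneurons, and Meis2 encodes a TALE homeodomain protein that can act with them. Sox11 is a SoxC factor of immature neurons, and doublecortin (Dcx) binds microtubules in migrating neuroblasts.

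The libraries held 11182335 to 36773832 unique molecular identifiers (UMIs). Barcodes with at least 300 genes numbered 37881 (1923 to 10153 per mouse), and 3470 of them (191 to 942 per mouse) had under 20% of UMIs from mitochondrial genes. These are called nucleus-like below, and the rest mitochondria-rich. Nucleus-like barcodes had a median of 1927 to 4432 UMIs per mouse. Of the kept barcodes, 166 sequences occurred in at least 2 libraries, as did 1 of the nucleus-like sequences. Levels are counts per 1000000 UMIs (CPM). Tsc2 was at 14.6 ± 1.78 CPM in nucleus-like barcodes of the Tsc2 wt/wt mice and at 14.7 ± 5.16 CPM in those of Tsc2 mut/mut (SD, n = 4 each). The tables sum the whole gene, so these counts do not check the deletion. Tsc2 mut/mut replicate 4 stood apart, since 182 of its 199 nucleus-like barcodes (91.5%) were choroid plexus-like. It had no nucleus in the NSC/astrocyte-like class and 1 in the inhibitory neuron or neuroblast-like class.

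Nuclei were grouped into 16 clusters without use of the 10 genes, and the clusters were named from marker lists that hold none of them. The inhibitory neuron or neuroblast-like class held 223 nuclei (6.43% of the nucleus-like barcodes) in 3 clusters. The largest, with 135 nuclei, had neuroblast and GABAergic interneuron markers raised about equally (mean log2 fold 2.32 and 2.29), so it bears neither name alone and is called the neuroblast/GABAergic cluster. The GABAergic markers Gad2 and Adarb2 were among its 10 leading genes and no gene of the neuroblast list was. Dlx6os1 and Dcx, which were kept out of the lists, were also among the 10. It had 8 of 10 neuroblast markers and 6 of 10 detected GABAergic markers at 1.5 times the level of the remaining nuclei or more, among them Igfbpl1, Stmn2, Gad1 and Gad2. The dividing cell markers Mki67 and Top2a were found in 12 and 14 of its nuclei. The second, the mixed neuron cluster, had 72 nuclei with striatal projection, GABAergic and excitatory markers raised together (8 of 11, 8 of 10 and 7 of 10), and it is given no single name. The third, with 16 nuclei, was striatal projection neuron-like (7 of 11 markers raised). No olfactory bulb tissue was sampled.

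Dlx6os1, the antisense long non-coding RNA of the Dlx5 and Dlx6 locus that is also known as Evf2, followed the class most closely. Its UMIs in nucleus-like barcodes lay 89.0% in the inhibitory neuron or neuroblast-like class. Its gene lies at chr6:6820189-6871592 on the minus strand of GRCm38, and Dlx6 (chr6:6863334-6868568, plus strand) lies inside it. Dcx (chrX:143855842-143933311, minus strand) was the member most like it across clusters. The 250 bases before a RefSeq start of each are shown because both held the homeodomain core TAATTA, which is in capitals. They are written in the direction of transcription from GRCm38.p6, and the first covers chr6:6869534-6869783 and the second chrX:143933125-143933374.
Dlx6os1: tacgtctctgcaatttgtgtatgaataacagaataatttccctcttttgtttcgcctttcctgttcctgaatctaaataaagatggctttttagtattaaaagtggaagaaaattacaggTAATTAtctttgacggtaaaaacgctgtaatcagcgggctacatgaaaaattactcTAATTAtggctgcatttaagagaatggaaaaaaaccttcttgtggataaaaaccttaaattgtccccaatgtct
Dcx: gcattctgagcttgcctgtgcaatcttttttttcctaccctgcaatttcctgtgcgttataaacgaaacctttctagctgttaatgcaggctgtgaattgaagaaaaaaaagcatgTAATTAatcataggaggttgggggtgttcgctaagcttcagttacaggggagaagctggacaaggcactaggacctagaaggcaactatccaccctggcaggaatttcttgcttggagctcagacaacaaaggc
TAATTA, which reads the same on both strands, was present in 5 of the 12 windows that the RefSeq table holds for 8 of the 10 genes, counted over 300 bases from 250 before to 50 after a start. The 5 were both windows of Dlx6os1, both of Dcx, which overlap and share 1 match, and 1 of Sp8. Of all 32851 windows of this length, 5.29% held it. TAATTA holds only A and T, and these shares were not matched for base content. The GC content of the 12 windows ran from 35.3% to 69.3%, with a median of 52.7% over all windows. The GC box core CCGCCC, searched on both strands, was in 5 of 12 windows against 35.7% of all, and the MEIS core TGACAG in 1 of 12 against 19.2%. These are matches of letters and not binding sites.

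The level of Dlx6os1 in the neuroblast/GABAergic cluster was 1797 CPM, from 591 UMIs, and 105 of 135 nuclei had at least 1 UMI (77.8%, exact 95% interval 69.8 to 84.5). Per mouse, it was 945, 1711, 1071 and 2783 CPM in Tsc2 wt/wt replicates 1 to 4 and 2267, 1471 and 1447 in Tsc2 mut/mut replicates 1 to 3. The genotypes overlapped, with the lowest and the highest value both in Tsc2 wt/wt. In the mixed neuron cluster the level was 136 CPM (68 UMIs in 19 nuclei), and in the striatal projection neuron-like cluster it was 360 (20 UMIs in 8 nuclei). All other nucleus-like barcodes together had 7.2 CPM, with a UMI in 27 of 3247 nuclei (0.832%). Among them, microglia-like nuclei had 26 UMIs in 7 nuclei and oligodendrocyte-like nuclei 31 UMIs in 8, with up to 11 and 13 UMIs in 1 nucleus of Tsc2 mut/mut replicate 1. In 74 endothelial-like nuclei none was found, which allows a share of up to 4.05% of nuclei with a UMI.

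The paired DLX genes were found in few nuclei. Dlx1 (chr2:71528113-71533981) was detected best, at 198 CPM in the neuroblast/GABAergic cluster (65 UMIs in 43 nuclei), 20.1 in the mixed neuron cluster and none in the striatal projection neuron-like cluster. Per mouse the neuroblast/GABAergic cluster gave 410, 141, 119 and 296 CPM in Tsc2 wt/wt and 136, 453 and 175 in Tsc2 mut/mut replicates 1 to 3, and both genotypes spanned about the same range. In all, 76.5% of its nucleus-like UMIs were in the class. Dlx2, Dlx5 and Dlx6 had 4, 3 and 3 UMIs in the neuroblast/GABAergic cluster. Only 27.3% of the Dlx6 UMIs in nucleus-like barcodes lay in the class, so at this depth no level could be set for these 3 genes. Dlx1 overlaps its antisense gene Dlx1as, which had 70 UMIs in nucleus-like barcodes. Whether counting used the strand is not given in the sources used here, and reads of Dlx1 and Dlx1as, or of Dlx6 and Dlx6os1, may not be told apart.

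Of the zinc finger factors, Sp9 (chr2:73271925-73284706) was at 143 CPM in the neuroblast/GABAergic cluster (47 UMIs in 40 nuclei) and 4.01 in the mixed neuron cluster. Its levels per mouse in the neuroblast/GABAergic cluster were 31.5, 129, 0 and 207 CPM in Tsc2 wt/wt and 198, 0 and 150 in Tsc2 mut/mut replicates 1 to 3. The mice with none, Tsc2 wt/wt replicate 3 and Tsc2 mut/mut replicate 2, had only 4 and 6 nuclei in the cluster. Sp8 (chr12:118846329-118852576) had 9 UMIs in 7 nuclei of the cluster, or 27.4 CPM. The class held 84.5% of the Sp9 and 75% of the Sp8 UMIs in nucleus-like barcodes. Sp9 overlaps Cir1 on the opposite strand.

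Meis2 (chr2:115863064-116065839, minus strand) had a UMI in more nuclei than any other of the 10, both in the neuroblast/GABAergic cluster and outside the class. Levels here are CPM without correction for gene length, so they compare cells and not genes. In the neuroblast/GABAergic cluster it was at 5128 CPM, and 130 of 135 nuclei had a UMI (96.3%, exact 95% interval 91.6 to 98.8). Per mouse these levels were 5325, 4266, 3929 and 6424 in Tsc2 wt/wt and 5873, 2715 and 5064 in Tsc2 mut/mut replicates 1 to 3. The lowest came from the 6 nuclei of Tsc2 mut/mut replicate 2, and the other mice of both genotypes overlapped. The mixed neuron cluster was at 556 and the striatal projection neuron-like cluster at 54.0 CPM, below the NSC/astrocyte-like class.

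Astrocyte-like cells of the V-SVZ, which include its stem cells, held more Meis2 UMIs than the neuronal nuclei did, at a lower level. The inhibitory neuron or neuroblast-like class (6.43% of nucleus-like barcodes) was at 2228 CPM and took 32.8% of the nucleus-like UMIs of Meis2. The NSC/astrocyte-like class (1063 nuclei, 30.6%) was at 733 CPM and took 51.1%. Its levels per mouse were 726, 775, 803 and 636 CPM in Tsc2 wt/wt and 840, 560 and 685 in Tsc2 mut/mut replicates 1 to 3. This was a narrow spread in which neither genotype lay apart. Ependymal-like nuclei followed at 413 (mouse range 327 to 506 over the 6 mice with at least 10 nuclei), then oligodendrocyte progenitor-like nuclei at 266, oligodendrocyte-like at 205 and microglia-like at 123. Of the 337 Meis2 UMIs of the oligodendrocyte-like class, 104 lay in 3 nuclei and 57 in 1 nucleus of Tsc2 mut/mut replicate 1, and the levels of its mice ran from 47.5 to 345 CPM over the 7 mice with at least 10 nuclei. In this order the ranges over mice did not overlap between NSC/astrocyte and ependymal-like nuclei, nor between ependymal and progenitor-like nuclei. The range of the progenitor-like nuclei, 153 to 296, rested on only 3 mice with at least 10 nuclei. The ranges of the progenitor, oligodendrocyte and microglia-like nuclei overlapped. Choroid plexus-like and endothelial-like nuclei had 16.5 and 14.9 CPM.

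Dcx, whose protein marks migrating neuroblasts, was low in the glial classes. It was at 499 CPM in the neuroblast/GABAergic cluster (164 UMIs in 76 nuclei), 90.3 in the mixed neuron cluster and 71.9 in the striatal projection neuron-like cluster. Its levels per mouse in the neuroblast/GABAergic cluster were 536, 434, 357 and 740 CPM in Tsc2 wt/wt and 446, 453 and 524 in Tsc2 mut/mut replicates 1 to 3. The Tsc2 mut/mut values all lay within the Tsc2 wt/wt range. Oligodendrocyte progenitor-like nuclei came next with 48.3 CPM, from 12 UMIs in 7 of 70 nuclei. All 12 came from Tsc2 mut/mut replicates 1 and 3, which had 10 and 27 of these nuclei and were at 185 and 61.3 CPM. The other 6 mice had none, in only 2 to 10 nuclei each. The NSC/astrocyte-like class had 4 UMIs in 1063 nuclei. No Dcx UMI was seen in 278 ependymal-like or 491 choroid plexus-like nuclei, which allows shares of up to 1.08% and 0.611% of nuclei with a UMI.

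Sox11 (chr12:27334264-27342574, minus strand) was at 316 CPM in the neuroblast/GABAergic cluster (104 UMIs in 54 nuclei), 32.1 in the mixed neuron cluster and 25.4 in the NSC/astrocyte-like class. The neuroblast/GABAergic cluster gave 347, 270, 238 and 237 CPM in Tsc2 wt/wt and 310, 226 and 412 in Tsc2 mut/mut replicates 1 to 3, and the genotypes overlapped. The class, with 6.43% of the nuclei and 137 CPM, held 39.8% of its nucleus-like UMIs. The NSC/astrocyte-like class, with 30.6% of the nuclei, held 34.9%. Progenitor, NSC/astrocyte, ependymal and unnamed nuclei were at 20.8 to 40.2 CPM.

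**Figure D1:**
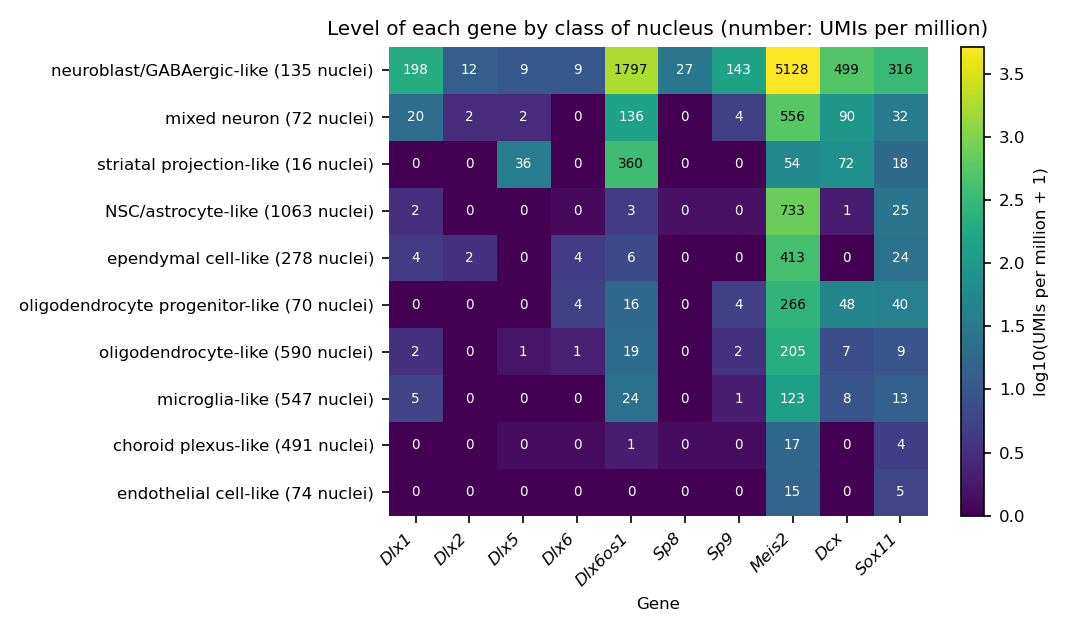
Heat map of the 10 genes (columns) in the clusters and classes of nucleus-like barcodes (rows). Colour is log10(CPM + 1) and the number in each field is CPM, rounded. The neuroblast/GABAergic cluster holds the highest level of Dlx1, Dlx6os1, Sp9, Meis2, Dcx and Sox11, with 5128 for Meis2 and 1797 for Dlx6os1. Its fields for Dlx2, Dlx5, Dlx6 and Sp8 rest on 3 to 9 UMIs. Meis2 also extends through the glial rows.

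**Figure D2:**
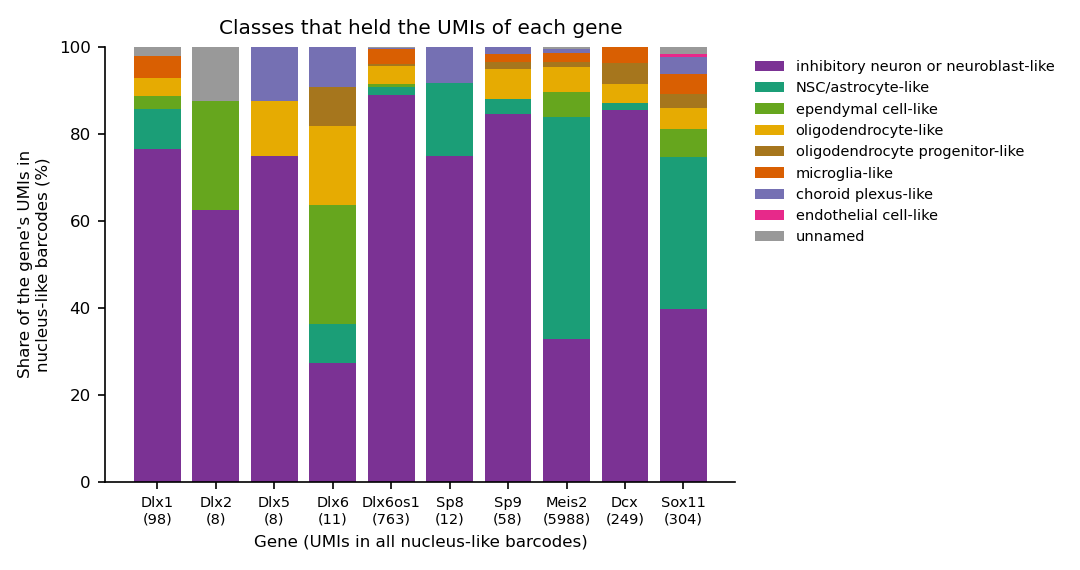
Stacked bars of the share of each gene's UMIs in nucleus-like barcodes (%, y axis) by class, with the number of UMIs under each gene on the x axis. Dlx6os1, Dcx and Sp9 lie mostly in the inhibitory neuron or neuroblast-like class (89.0%, 85.5% and 84.5%), and Meis2 mostly in NSC/astrocyte-like nuclei (51.1%). These classes made up 6.43% and 30.6% of the nuclei.

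Depth differed little between the class and the rest (median 2551 and 2816 UMIs per nucleus). Each nucleus was also thinned to 1000 UMIs, which left out 18 nuclei of the class and 280 of the others as shallower. After thinning, Dlx6os1 was found in 46.3% of the nuclei of the class and 0.410% of the others, Dcx in 24.6% and 0.247%, Sp9 in 10.2% and 0.0787% and Dlx1 in 10.6% and 0.223%. Unthinned, these shares were 59.2% and 0.832% for Dlx6os1, 44.4% and 0.739% for Dcx, 18.8% and 0.246% for Sp9 and 22.4% and 0.678% for Dlx1. Meis2 had 63.2% against 22.4% after thinning (70.9% and 36.2% before) and Sox11 15.9% against 1.59% (30.04% and 4.65% before). The clusters and the levels came from the same nuclei, so these contrasts were not tested.

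Nuclei were also gated one by one, by at least 3 detected markers of a list and more than of any other list. The 16 nuclei gated as neuroblasts had 1772 CPM of Dlx6os1 and 4162 of Meis2, and the 62 gated as GABAergic interneurons had 1361 and 4160. These were the gates with the highest levels of both genes. The 27 nuclei gated as striatal projection neurons had 142 CPM of Dlx6os1, 802 of Meis2 and no Dlx1 UMI. The 6 gated as dividing or transit-amplifying cells had 22 Dlx6os1 UMIs in 2 nuclei. The 1244 gated as NSC/astrocytes were at 751 for Meis2 and 18.0 for Dlx6os1, where the NSC/astrocyte-like class had 3.35 for Dlx6os1. Of the 207 nuclei of the neuroblast/GABAergic and mixed neuron clusters, 61 were gated as GABAergic interneurons, 16 as striatal projection neurons, 14 as neuroblasts, 6 as dividing cells and 5 as excitatory neurons, and 52 met no gate. The others passed non-neuronal gates, 31 of them that of NSC/astrocytes and 11 that of microglia.

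Joint detection was counted in the neuroblast/GABAergic cluster. At least 4 of the 10 had a UMI in 70 of its 135 nuclei (51.9%), and 1 nucleus had 8. Dlx6os1 and Meis2 were both found in 103 nuclei, which is 98.1% of those with Dlx6os1 and 79.2% of those with Meis2. These shares were near those over all 135 nuclei, of which 96.3% had Meis2 and 77.8% Dlx6os1. Dlx6os1 was present in 69 of the 76 nuclei with Dcx (90.8%), 36 of the 40 with Sp9, all 7 with Sp8 and 34 of the 43 with Dlx1 (79.1%). Whether any pair was found together more often than its single shares give was not tested. Of the 43 nuclei with Dlx1 and the 4 with Dlx2, none had both. In the mixed neuron cluster 3 of 72 nuclei had at least 4 of the genes, and outside the class 5 of 3247 did.

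**Figure D3:**
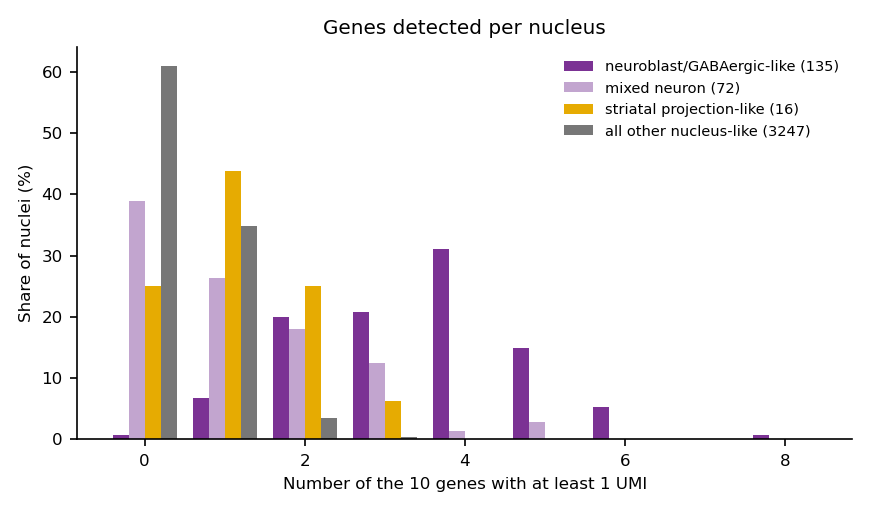
Share of nuclei (%, y axis) by the number of the 10 genes with at least 1 UMI (x axis), for the neuroblast/GABAergic, mixed neuron and striatal projection neuron-like clusters and all other nucleus-like barcodes. Most nuclei of the neuroblast/GABAergic cluster hold 2 to 5 of the genes, while 1982 of the 3247 nuclei outside the class hold none.

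Most UMIs of the genes, like most UMIs of all genes, lay outside the nucleus-like set. Of the 37262 UMIs of the 10 genes in all barcodes, 63.0% were in barcodes with under 300 genes, 16.9% in mitochondria-rich and 20.1% in nucleus-like barcodes. These kinds of barcode held 74.0%, 19.6% and 6.36% of all UMIs. In CPM without mitochondrial genes, Dlx6os1 was at 53.0 ± 41.2 in nucleus-like barcodes and 10.1 ± 2.49 in those with under 300 genes (SD, n = 8 mice). Meis2 was at 455 ± 219 and 195 ± 39.3, and Dcx at 18.5 ± 9.24 and 9.59 ± 3.69. Dlx1 was at 7.60 ± 3.92 and 5.98 ± 1.99. The other 6 genes went the other way. Of these, Dlx2 (0.629 and 2.26), Dlx5 (0.512 and 1.74), Dlx6 (0.840 and 4.23) and Sp8 (1.07 and 1.55) had only 8 to 12 UMIs in nucleus-like barcodes. Sox11 was at 23.4 ± 12.01 in nucleus-like barcodes and 65.7 ± 14.1 in those with under 300 genes, and Sp9 at 3.75 ± 3.32 and 9.66 ± 2.11. How the classes compare with barcodes of few genes depends on the scale. On this scale Sox11 was at 26.9, 26.8 and 42.8 in NSC/astrocyte, ependymal and progenitor-like nuclei and Meis2 at 135 in microglia-like nuclei, below the means of barcodes with under 300 genes. Meis2 in oligodendrocyte-like nuclei was at 225, above it, and Dlx6os1 in all nuclei outside the inhibitory neuron or neuroblast-like class was at 7.76, below it. In CPM of all UMIs, the barcodes with under 300 genes were at 34.0 ± 8.01 for Sox11, 100.8 ± 21.9 for Meis2 and 5.23 ± 1.36 for Dlx6os1. Sox11 in progenitor-like nuclei (40.2), Meis2 in microglia-like nuclei (123) and Dlx6os1 outside the class (7.2) then lay above these means, while Sox11 in NSC/astrocyte and ependymal-like nuclei (25.4 and 23.9) lay below on both scales. The part of free RNA in these levels was not tested.

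**Figure D4:**
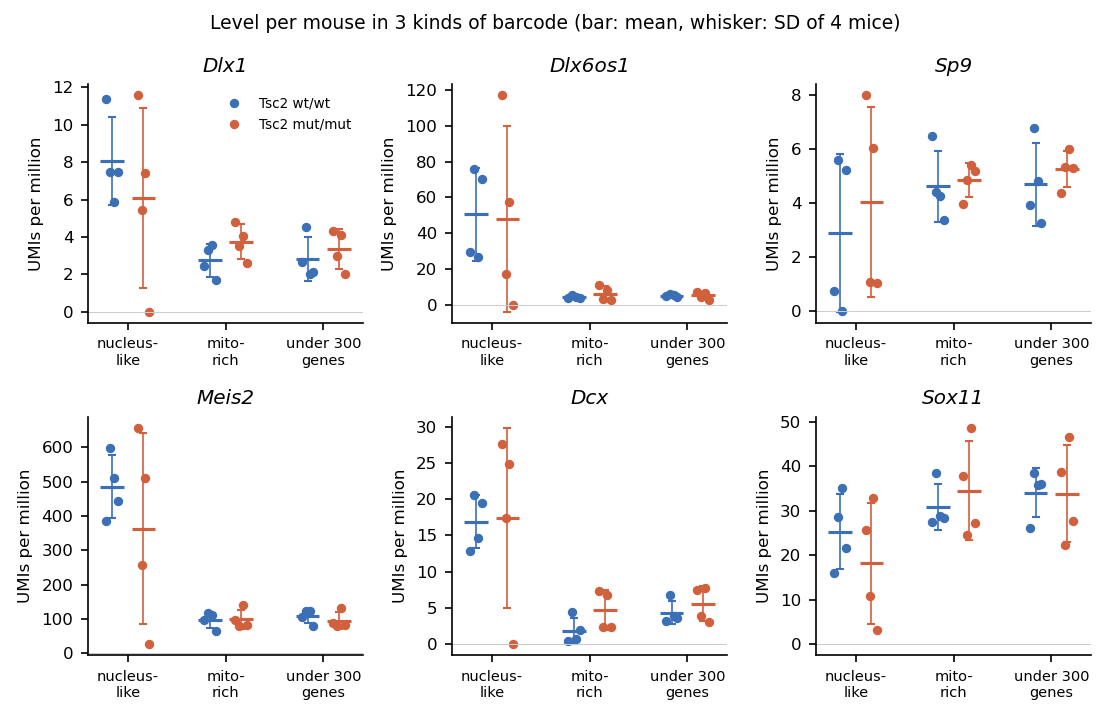
Level of the genes per mouse (CPM, y axis) in nucleus-like, mitochondria-rich and under-300-gene barcodes (x axis), with a point for each mouse, bars for the mean and whiskers for the SD of 4 mice of a genotype. Mean Dlx6os1 and Meis2 are highest in nucleus-like barcodes, where mean Sox11 is lowest. Points of the genotypes overlap.

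How far the genes differed between genotypes was tested on UMIs summed per mouse with edgeR's quasi-likelihood test and Benjamini-Hochberg adjustment over all genes, at an adjusted p of 0.05. No member passed in any kind of barcode. In all kept barcodes 0 of 7 tested members were called, where 0.0153% of all 13060 genes (2) were called. In nucleus-like barcodes 0 of 4 tested members were called against 0% of 11007 genes, of which 169 had an unadjusted p under 0.05 and DESeq2 called 1. In mitochondria-rich barcodes 0 of 7 members were called against 0.271% of 10702 genes (29). The members not tested had too few UMIs.

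In nucleus-like barcodes Dlx6os1 was at 29.6, 75.8, 26.4 and 70.1 CPM in Tsc2 wt/wt replicates 1 to 4 and 117, 17.4, 57.4 and 0 in Tsc2 mut/mut. The Tsc2 mut/mut values enclosed those of Tsc2 wt/wt, and the 0 was replicate 4 with its choroid plexus-like nuclei. The log2 fold change of mut/mut over wt/wt was -0.03 (95% interval -2.02 to 1.97, edgeR adjusted p = 0.998). Meis2 was at 385, 599, 511 and 444 CPM in Tsc2 wt/wt and 658, 257, 510 and 26.1 in Tsc2 mut/mut, and again the highest and the lowest mouse were Tsc2 mut/mut. The log2 fold change of Meis2 was -0.37 (-1.88 to 1.13, adjusted p = 0.940 by edgeR). Dcx changed by 0.16 (-1.19 to 1.51) and Sox11 by -0.27 (-1.34 to 0.80) on this scale, with edgeR adjusted p of 0.962 and 0.939. Single mice moved all 4 values. Without Tsc2 mut/mut replicate 4 they were 0.31 for Dlx6os1, -0.06 for Meis2, 0.42 for Dcx and -0.06 for Sox11, and without Tsc2 mut/mut replicate 1 they were -0.88, -0.82, -0.11 and -0.44. Without Tsc2 mut/mut replicate 3 Sox11 was at -0.72. All 4 intervals passed a log2 fold change of 1 in size, those of Dlx6os1, Meis2 and Dcx in both directions and that of Sox11 only downward.

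Among the members that passed the filter on low counts in the main edgeR fits with all 8 mice, the largest log2 fold change was that of Dcx in mitochondria-rich barcodes. It was at 0.405, 4.40, 0.654 and 1.92 CPM in Tsc2 wt/wt and 7.32, 2.43, 6.82 and 2.33 in Tsc2 mut/mut. The 2 groups overlapped, since Tsc2 wt/wt replicate 2 lay above 2 of the Tsc2 mut/mut mice. Its log2 fold change was 0.98 (SE 0.53, interval -0.19 to 2.16, edgeR adjusted p = 0.454). It ran from 0.54 with a minimum of 200 genes to 1.98 without Tsc2 wt/wt replicate 2, with an edgeR adjusted p of 0.0770 in the latter. DESeq2 and edgeR without the filter also fitted members of few UMIs and called 0. In nucleus-like barcodes they gave larger values, 2.82 to 3.88 for Dlx5 and -1.28 to -1.06 for Dlx2. Each rested on 8 UMIs, and no Dlx5 UMI came from a Tsc2 wt/wt mouse.

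The inhibitory neuron or neuroblast-like class was to be compared between genotypes if every mouse had at least 10 of its nuclei. The mice had 12, 38, 8 and 17 in Tsc2 wt/wt and 63, 17, 67 and 1 in Tsc2 mut/mut, so that comparison was not run. A fit without Tsc2 mut/mut replicate 4 was added after these numbers were seen. This fit kept Tsc2 wt/wt replicate 3, whose 8 nuclei were below the limit. It called 0 of 4 tested members and 0% of 1489 genes. An unadjusted p under 0.05 was found for 0 members and 56 genes, and DESeq2 called 1 gene. The log2 fold changes were -0.76 for Meis2 (-2.33 to 0.82), -0.79 for Dlx6os1 (-2.15 to 0.57), -0.66 for Dcx (-1.56 to 0.24) and -0.45 for Sox11 (-1.68 to 0.78). When 1 more mouse was left out, Meis2 ran from -1.08 to -0.33, Dlx6os1 from -1.22 to -0.42, Dcx from -0.89 to -0.49 and Sox11, which was too low to be tested without Tsc2 wt/wt replicate 2, from -0.72 to -0.12. Without Tsc2 wt/wt replicate 3 as well, edgeR tested 5 members and called 0. All 5 were lower in Tsc2 mut/mut, and 2 had an unadjusted p under 0.05, as did 245 of all 1969 genes. Dlx1, which was tested in 6 settings, ran from -1.47 to -0.90. The makeup of the class also differed between the mice. The mixed neuron cluster, where the genes were low, held 13 nuclei of Tsc2 wt/wt and 59 of Tsc2 mut/mut mice, and the neuroblast/GABAergic cluster 58 and 77. The whole class held 75 and 148. By mouse, the mixed neuron cluster had 1, 3, 4 and 5 nuclei in Tsc2 wt/wt and 26, 9, 23 and 1 in Tsc2 mut/mut. The part of this makeup in the fold changes was not tested. In a fit of the NSC/astrocyte-like class without the same mouse, 0 of 2 members were called and 0% of 6453 genes, with 556 at an unadjusted p under 0.05 and 37 called by DESeq2. Meis2 differed there by -0.08 (-0.38 to 0.22) and Sox11 by -0.25 (-0.96 to 0.46). Without Tsc2 wt/wt replicate 2, 223 genes were called in that class and no member.

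In Tsc2 wt/wt mice the class made up 5.24% ± 1.05 of nucleus-like barcodes, and in Tsc2 mut/mut mice 5.57% ± 3.69 (SD, n = 4 each). The difference of 0.326 percentage points had p = 0.886 in an exact two-sided permutation test over the 70 assignments of the mice. Without Tsc2 mut/mut replicate 4 the Tsc2 mut/mut mean was 7.26% and the difference 2.01 points, with an exact p = 0.114. Of the UMIs of the 10 genes in nucleus-like barcodes, the class held 33.0% ± 17.0 per mouse (SD, n = 8), from 0 to 47.9%. Meis2 made up 5988 of these 7499 UMIs, so the share mostly follows that gene. By gene, over all mice, the class held from 27.3% for Dlx6 to 89.0% for Dlx6os1. Since the sort and the choice of barcodes set which nuclei are seen, these are shares of sorted nuclei.

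**Figure D5:**
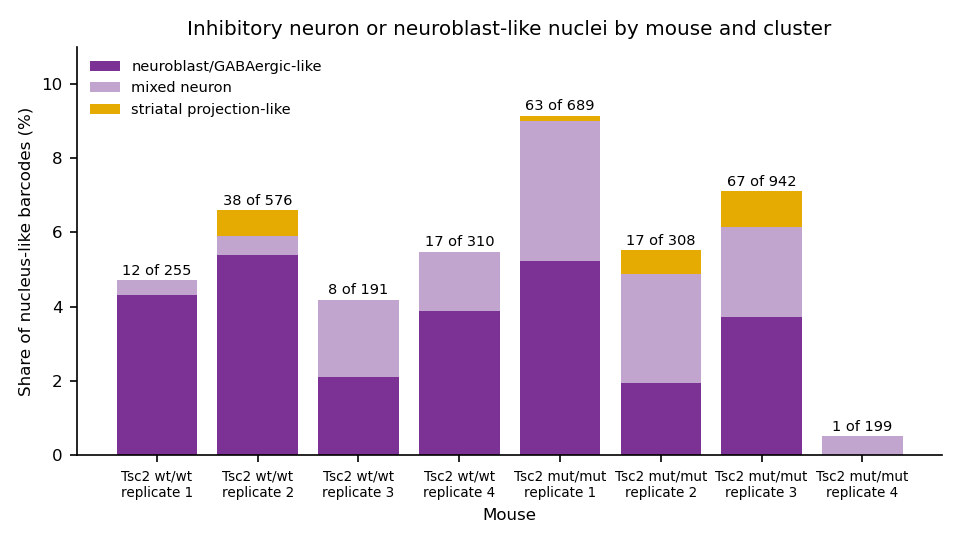
Share of nucleus-like barcodes (%, y axis) in the 3 clusters of the inhibitory neuron or neuroblast-like class for each mouse (x axis), stacked by cluster. The neuroblast/GABAergic cluster is present in 7 of 8 mice, and Tsc2 mut/mut replicate 4 has 1 nucleus of the class.

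Of 42 other genes of the same pathway, listed as progenitor factors, inhibitory fate genes and neuroblast cytoskeleton or migration genes, 37 had at least 10 UMIs in nucleus-like barcodes. In the inhibitory neuron or neuroblast-like class 22 of them were at least 2-fold above the other nuclei and 2 at least 2-fold below, where 13.7% of 16302 genes with as many UMIs were at least 2-fold above. The median log2 ratio was 1.28 for the list and -0.33 for all genes. Of those above, Gad1, Gad2, Slc32a1, Bcl11b, Igfbpl1, Erbb4 and Tubb3 were also in the marker lists that named the clusters. Genes of the list were not kept out of the clustering either. The excess was thus in part set in advance and is no separate evidence for the class. Prokr2, with 8 UMIs in the class and 2 outside, reached the 10 UMIs only through the class. By role, 11 of 15 inhibitory fate genes, 10 of 15 cytoskeleton and migration genes and 1 of 7 progenitor factors were above. Gad2, which makes GABA and was a naming marker, was at 301 CPM in the class and 5.04 outside. Pbx3, a TALE partner of MEIS proteins, was at 1053 and 90.2. Igfbpl1, a neuroblast gene and also a naming marker, was at 58.9 and 0.940. Robo2, a guidance receptor of migrating neuroblasts, was at 1933 and 189. Nr2e1, a factor that keeps neural stem cells undifferentiated, was lower in the class (6.80) than in NSC/astrocyte-like nuclei (96.1).

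Between genotypes none of the 31 tested genes of this list was called in nucleus-like barcodes by edgeR. In this fit 10 were above 0 and 21 below it, with a median log2 fold change of -0.18 against 0.04 for all genes. The 3 largest were Nr2f2 at 1.31 (SE 0.72), Erbb4 at -0.63 (SE 0.65) and Nr2e1 at -0.62 (SE 0.46), each with an edgeR adjusted p of 0.922. No gene of the list was called among 36 tested in all kept barcodes, 32 in mitochondria-rich barcodes, 16 in the inhibitory class or 20 in the NSC/astrocyte-like class. In these edgeR fits an unadjusted p under 0.05 was found for 0, 5, 1 and 1 of them. Of all tested genes it was found for 337 of 13060, 1472 of 10702, 56 of 1489 and 556 of 6453.

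Genes with a pattern like that of a member were ranked by Pearson correlation of log2(CPM + 1) over the 16 clusters, which share libraries and depth. Dlx6os1 was nearest to Gm38505 (0.92), Dcx (0.91), Kcnh7 (0.90), Slco5a1 (0.90) and Adarb2 (0.89). Dcx was nearest to Gm38505 (0.96), Gm45323 (0.96), Sez6 (0.96), Pde4dip (0.94) and Crmp1 (0.94). Meis2 was nearest to C130071C03Rik (0.97), Nol4 (0.94), Fmn2 (0.92), Cdh2 (0.90) and G630016G05Rik (0.90), and Sox11 to Nol4 (0.92), Kcnd3 (0.91), Ss18l1 (0.91), Wnk3 (0.90) and Meis2 (0.90).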

How the data were processed

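Nuclei of the V-SVZ of 8 mice, 1 library each, were captured with the 10x Genomics 3′ kit v3.1. The authors ran Cell Ranger 7.0.1 against GRCm38, set to return 60000 barcodes per library, and the deposited values are raw counts of UMIs per gene and barcode, with no filter on genes and no normalization. Whether reads were counted by strand is not given in the sources used here.

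Barcodes with at least 300 genes were kept and those with under 20% mitochondrial UMIs called nucleus-like. Clusters were made with scanpy 1.11.5 and leidenalg 0.10.2 (Leiden, resolution 0.8, 30 components, 20 neighbours) on 2000 variable genes centred within each mouse. Left out were 851 genes, namely the 10 described, mitochondrial and ribosomal protein genes, Xist, Tsix and the genes of the Y chromosome. Clusters were named from 13 marker lists, with at least 3 markers raised 1.5-fold, a mean log2 fold of at least 0.5 and the next list at no more than 0.8 of it. The neuroblast, GABAergic interneuron and striatal projection neuron lists were allowed to tie. Where the best and the next list were both among these, the limit applied to the third list, whatever the leading genes, and the cluster was called mixed. The 207 nuclei of the neuroblast/GABAergic and mixed neuron clusters entered the class this way. A cluster was left unnamed where its nuclei were shallow for their mice and none of its 10 leading genes was of its list. It was also left unnamed where its leading genes went against the name. The minimum mean fold and this last condition were set after the clusters were seen and before genotypes were compared. An unnamed cluster had 89 nuclei, 75 of Tsc2 wt/wt and 14 of Tsc2 mut/mut mice, and a median of 747 UMIs. It had 11 of 12 NSC/astrocyte markers raised, but was not in the NSC/astrocyte-like class or its fit. The class described joins the clusters named neuroblast, GABAergic interneuron or striatal projection neuron-like, alone or mixed. The study's sort gate excluded doublets among the sorted events. No barcode was removed as a doublet in the main results, so barcodes that hold several nuclei may remain.

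UMIs were summed per mouse, the replicate, and fitted with edgeR 4.0.16 in R 4.3.3 (TMM, filterByExpr on genotype, robust quasi-likelihood test, Benjamini-Hochberg adjustment, threshold 0.05). For shares, an exact permutation test over mice (two-sided, scipy 1.17.1) was used. Intervals of shares of nuclei are exact binomial at 95%, and they and the limits for a count of 0 (3 counts) cover counting error only. Checked on simulated data for the nucleus-like fit, with 200 of 11007 genes changed by 4 on the log2 scale and the spread estimated from the data, 98.5% were recovered and 11 of 208 calls were false. Smaller changes were not simulated.

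The 10 genes, the pathway and marker lists and the tests were chosen with earlier results of these data known. All 10 genes are named. Of the pathway list, genes called and the 3 with the largest absolute log2 fold change in nucleus-like barcodes are named for genotype, and the examples of levels between classes were chosen after their values were seen. The 5 most similar genes needed at least 50 UMIs. Alternatives were DESeq2 1.42.0, no filter on low counts, other limits on genes and mitochondrial UMIs, other clusterings, gating of single nuclei, removal of the 5% with the highest doublet scores, a replicate block and leaving out each mouse.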

Additional observations from a re-analysis of the deposited data

Results flagged for a closer look

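Among 50 sets of 4 mice looked at, 2 had 1 mouse far from the other 3 by Dixon's test, where chance gives about 1 in 20. Most sets were a gene in a genotype and kind of barcode, with at least 20 UMIs. The rest were the share of the class and its share of member UMIs in each genotype. All kept barcodes include the nucleus-like and mitochondria-rich ones, so the sets are not independent. In mitochondria-rich barcodes, Sp8 was at 0.442 counts per 1000000 UMIs (CPM) in Tsc2 mut/mut replicate 2 and at 1.30 to 1.46 in the other Tsc2 mut/mut mice. In the same kind of barcode, Sox11 was at 38.5 CPM in Tsc2 wt/wt replicate 2 and at 27.5 to 28.8 in the other Tsc2 wt/wt mice.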

How the results depend on the processing

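No member was called in any of the 63 alternatives to the genotype fits. Of 306 alternative values of single members' log2 fold changes, 277 kept their sign and 29 did not, and the cause was not tested. The difference in the share of the inhibitory neuron or neuroblast-like class (0.326 points, mut/mut minus wt/wt) ran from -0.866 to 2.01 when 1 mouse was left out, and was below 0 without Tsc2 wt/wt replicate 3 (-0.026), Tsc2 mut/mut replicate 1 (-0.866) or Tsc2 mut/mut replicate 3 (-0.189). It was -0.544 with single nuclei gated by markers (exact permutation p = 0.714). In 2 alternatives chosen after seeing the data, it was -1.19 with the neuroblast/GABAergic cluster alone (exact permutation p = 0.343) and -0.929 without the mixed neuron cluster (exact permutation p = 0.571). The share of the UMIs of the 10 genes in the class, which mostly follows Meis2, was 33.0%. It ran from 30.9% to 37.8% when 1 mouse was left out, and was 19.2% with clusters of all kept barcodes and 20.8% with the gate. Removal of the 174 barcodes with the highest doublet scores, 18 of them in the class, left the difference at 0.660 points. The numbers of all genes called ran from 0 to 6 in all kept barcodes, 0 to 1 in nucleus-like barcodes, 3 to 235 in mitochondria-rich barcodes, 0 to 18 in the inhibitory class and 0 to 223 in the NSC/astrocyte-like class. The lowest adjusted p of Dcx in mitochondria-rich barcodes was 0.0770 over edgeR and DESeq2 settings. The fit of the inhibitory class with all 8 mice was not run.

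With the replicate number as a block, 0 members were called in every fit, and 0, 0 and 18 genes in all kept, nucleus-like and mitochondria-rich barcodes. Deviations of same-numbered mice correlated at -0.651 to 0.397 in nucleus-like barcodes, and those of differently numbered mice at -0.615 to 0.622. With so few and such widely spread values, whether the numbers pair the mice could not be decided. NSC/astrocyte-like nuclei also split by mouse. Their largest cluster held 189, 74 and 239 nuclei of Tsc2 wt/wt replicates 2 and 4 and Tsc2 mut/mut replicate 3, and their next 0, 0 and 1. For Tsc2 wt/wt replicates 1 and 3 and Tsc2 mut/mut replicates 1 and 2 these were 6, 7, 43 and 6 against 52, 60, 161 and 54. What set this split was not tested, and no fit modelled it. Few nuclei per mouse (0 to 36 in the neuroblast/GABAergic cluster) limit every value given for single mice.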
